A study of Rattus norvegicus with 18 samples.

Results

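The genes of polyamine synthesis and its antizyme brake were followed in testis RNA of male Wistar rats aged 8 weeks. Rows of the expression table were taken where their RefSeq accession maps to the rat symbols *Oaz1*, *Oaz2*, *Oaz3*, *Odc1*, *Azin1*, *Azin2*, *Amd1*, *Srm*, *Sms* or *Sat1*. This gave 13 of the 7016 transcript rows, for 9 of the 10 genes; *Sms*, spermine synthase, is not analysed here. The 6 RNA libraries comprise 3 from rats under chronic sleep restriction (CSR) and 3 from control rats, all of whole testis with no genotype or drug named. The series was set up to find transcripts related to reduced fertility after sleep loss. Neither the labels nor the series text used here describe how sleep was restricted or for how long, or whether the libraries are from separate animals. P-values therefore measure the spread between these libraries, which may be technical. The submitters' codes for control libraries 1 and 2 share the stem MC1, while that of control library 3 has the stem MC3, and the sources do not say what the stem marks. Of all 15 pairs of libraries, control libraries 1 and 2 were the most alike (Pearson r = 0.932 across tested transcripts, which are not independent replicates, against 0.874 to 0.921 for the other pairs). Whether they share an animal is not known, and they were counted as 2 libraries.

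Polyamines (putrescine, spermidine and spermine) are small positively charged molecules that bind nucleic acids and are needed for growth and translation. Ornithine decarboxylase, encoded by *Odc1*, makes putrescine from ornithine. Antizymes bind the enzyme, and the antizyme of *Oaz1* carries it to the proteasome. The translation of antizymes needs a ribosomal frameshift that polyamines promote, which closes a feedback loop. Antizyme inhibitors resemble ornithine decarboxylase and draw antizyme away from it. In the testis *Oaz3* encodes an antizyme made in haploid germ cells (spermatids), and *Azin2* an antizyme inhibitor known from testis and brain.

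The table gives FPKM, a fragment count divided by transcript length and library size, so levels of different genes can be ordered. Median values lay between 3.69 and 3.97 FPKM per library, and the read depth is unknown. Genes expected in whole testis were present: the spermatid gene *Tnp1* lay between 3903 and 7730 FPKM. Of the somatic cell lists, 7 of 12 Sertoli cell genes and 5 of 7 Leydig cell genes had a row. The libraries held 1000 to 1415 rows at 0 FPKM in CSR against 275 to 423 in control.

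Sequence before the annotated start was available from RefSeq (build GRCr8, a later build than the rn6 of the expression data) for 8 of the 10 genes. The 250 bases before the start of *Oaz3*, *Oaz1* and *Amd1* are shown, because *Oaz3* had by far the highest level and because *Oaz1* and *Amd1* both hold a TATAAA near the start. Capitals mark TATAAA and CACGTG, an E-box.
Oaz3, chr2:184765177-184765426, minus strand: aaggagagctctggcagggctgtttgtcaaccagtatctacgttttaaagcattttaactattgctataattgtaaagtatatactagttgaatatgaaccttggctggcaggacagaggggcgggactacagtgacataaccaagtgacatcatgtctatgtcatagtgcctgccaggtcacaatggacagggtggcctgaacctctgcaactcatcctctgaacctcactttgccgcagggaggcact
Oaz1, chr7:9536991-9537240, minus strand: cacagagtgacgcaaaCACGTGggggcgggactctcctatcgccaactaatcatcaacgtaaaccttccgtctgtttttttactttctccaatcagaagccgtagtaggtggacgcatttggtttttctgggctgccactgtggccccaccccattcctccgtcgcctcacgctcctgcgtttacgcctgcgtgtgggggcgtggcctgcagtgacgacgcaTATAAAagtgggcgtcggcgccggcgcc
Amd1, chr20:45265983-45266232, minus strand: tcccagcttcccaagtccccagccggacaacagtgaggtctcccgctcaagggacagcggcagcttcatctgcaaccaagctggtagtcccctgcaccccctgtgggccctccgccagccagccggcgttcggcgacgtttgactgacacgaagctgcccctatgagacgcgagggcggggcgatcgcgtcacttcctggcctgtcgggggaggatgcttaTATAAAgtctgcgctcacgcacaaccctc
The TATAAA began at position -28 in *Oaz1* and -29 in *Amd1*, counted from the annotated start, and 12.9% of 33469 promoters of the same length in the table held TATAAA on either strand. CACGTG, which reads the same on both strands, was present in *Oaz1* at -234 and in *Srm* at -173, against 5.59% of all promoters. TGACGTCA, the cAMP response element, also the same on both strands, was in none of the 8 windows and in 1.59% of all promoters. *Oaz3* had the lowest GC content of the 8, 46.8%, and 3 CpG dinucleotides, while *Oaz1* had 58% and 22, *Amd1* 64% and 19, and *Odc1* 78% and 41. The medians over all promoters were 51.2% and 5. These matches describe letters in a window and not sites in use.

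*Oaz3* (NM_001101018) was among the most abundant transcripts of the testis in every library. It read 4528, 4287 and 4210 FPKM in the 3 CSR libraries, in their numbered order, against 2148, 2894 and 4374 FPKM in the controls. Its rank among all 7016 rows was 1, 3 and 2 under CSR and 4, 3 and 2 among the controls. Those that preceded it in one library or another were *Tnp1* and *Tnp2*, transition proteins that replace histones, and *Smcp*, a protein of the sperm mitochondrial capsule. *Oaz3* alone held 2.86 to 3.09% of the summed FPKM of the table in CSR and 1.65, 2.14 and 3.00% in control.

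The other 8 genes stood far below it, in the order *Azin2*, *Odc1*, *Oaz2*, *Oaz1*, *Amd1*, *Azin1*, *Sat1* and *Srm* by mean over the 6 libraries, with the rows of a gene summed. *Azin2* averaged 153.9 FPKM, *Odc1* 50.2, *Oaz2* 30.5, *Oaz1* 25.0, *Amd1* 18.6, *Azin1* 6.50, *Sat1* 1.43 and *Srm* 0.926 FPKM. Over all 6 libraries the ranges of *Oaz3*, *Azin2*, *Odc1* and *Oaz2* did not overlap with the gene next in order above or below, except *Oaz2*, which overlapped *Oaz1*. *Oaz1* also overlapped *Amd1*, and *Sat1* overlapped *Srm*. Within every library, however, *Oaz2* was above *Oaz1* and *Oaz1* was above *Amd1*. *Sat1* was below *Srm* in control library 3 only, and both were listed at 0 in CSR library 3. *Oaz3* made up 98.9, 98.9 and 98.9% of the summed FPKM of the 3 antizymes in CSR and 97.1, 97.6 and 98.9% in control. *Azin2* held 94.2 to 97.1% of the summed FPKM of both antizyme inhibitors.

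**Figure D1:**
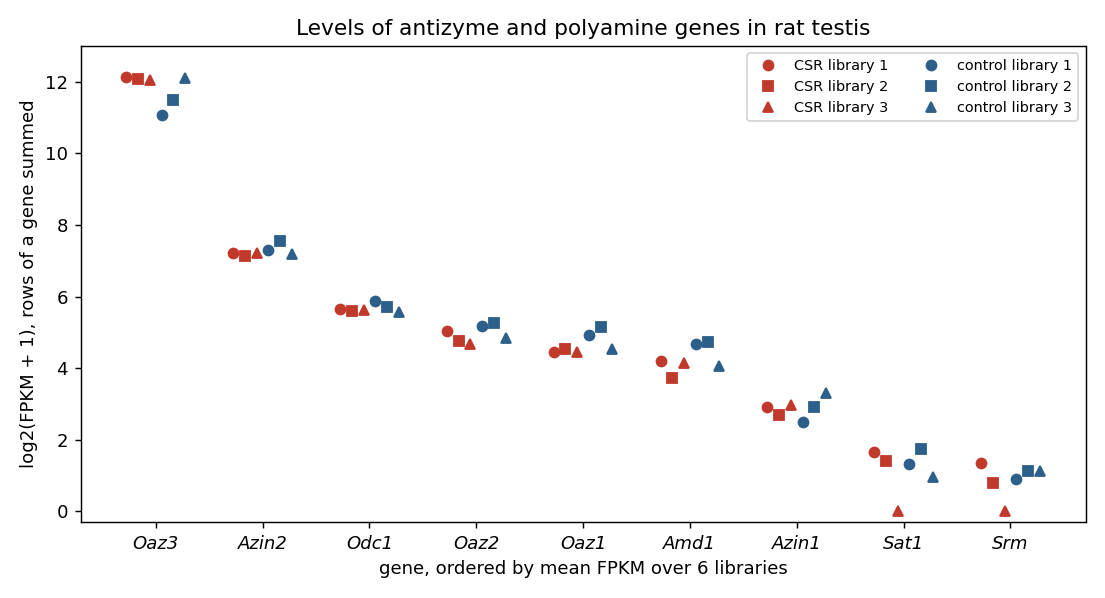
Level of each gene, log2(FPKM + 1) with the rows of a gene summed, in the 3 CSR (red) and 3 control (blue) libraries; each point is 1 library and genes are ordered by mean. *Oaz3* is the highest gene in all libraries, with control libraries 1 and 2 the lowest, while *Srm* and *Sat1* are near 1 FPKM and listed at 0 in CSR library 3.

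The question of the comparison was which of these transcripts differed after sleep restriction. None of the 11 member rows tested passed an adjusted p of 0.05 by limma over all 5657 transcripts, of which 0.442% were called. Another 2 rows, the minor rows of *Oaz2* and *Azin1*, did not reach 1 FPKM in 3 libraries and were not tested. Adjusted p-values of the 11 rows lay between 0.363 and 0.893. Of the 11, 8 had a negative and 3 a positive log2 fold change, with a median of -0.24 on the log2(FPKM + 1) scale. Over all tested transcripts 56% were negative and the median was -0.06. A single member row, the main row of *Oaz1*, had an unadjusted p under 0.05 by limma, where 13.2% of all tested transcripts did. In 2 of the 11 rows every CSR library lay below every control library, and in none above; over all tested transcripts 12.6% lay below and 8.96% above. For low transcripts such as *Srm* and *Sat1* the log2 fold change depends on the 1 FPKM added. Without CSR library 3, where both are listed at 0, it was 0.032 for *Srm* and 0.20 for *Sat1*.

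**Figure D2:**
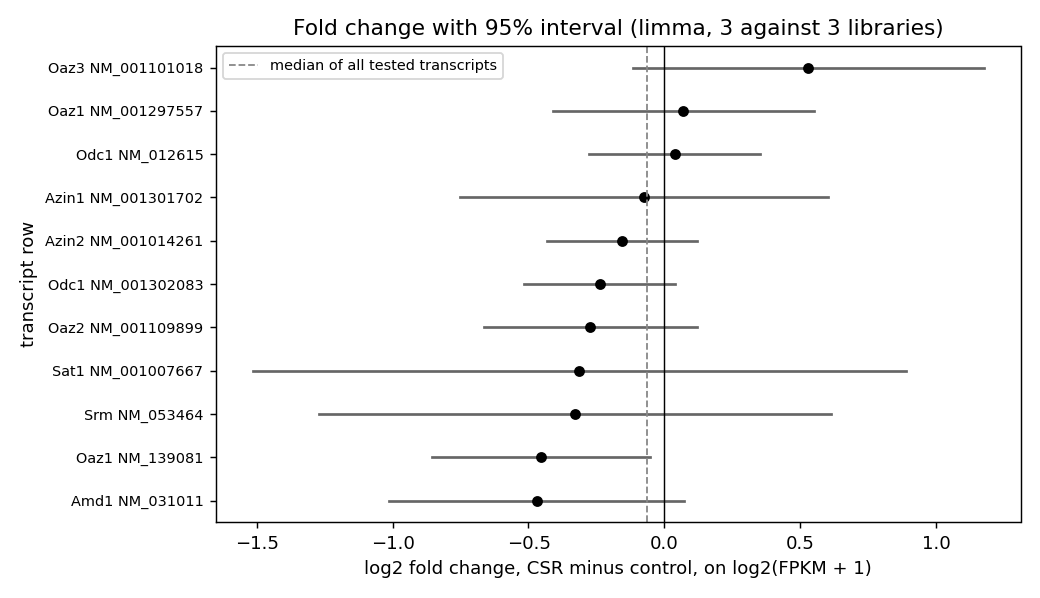
Log2 fold change (CSR minus control, log2(FPKM + 1) scale) of the 11 tested rows with the 95% interval from limma, 3 against 3 libraries; the dashed line is the median of all tested transcripts, -0.06. The interval of *Oaz1* NM_139081 lies below 0 before adjustment, and the intervals of the other rows include 0.

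Among the antizymes, the values of *Oaz3* and the main row of *Oaz1* differed between groups in opposite directions, neither past the threshold. For *Oaz3* the mean was 4342 ± 166 FPKM in CSR against 3139 ± 1133 in control (SD, n = 3 each), and the log2 fold change was 0.53 with a standard error of 0.27 (limma adjusted p = 0.399, 95% interval -0.12 to 1.18). The 3 CSR libraries lay within a narrow band, whereas control library 3 lay inside that band and control libraries 1 and 2 lay below it. *Oaz1*, the antizyme present in most tissues, read 18.1, 19.0 and 18.0 FPKM in CSR against 26.8, 30.9 and 20.0 FPKM in control for NM_139081. All CSR values of this row were below all control values, with control library 3 the nearest to CSR. Its log2 fold change was -0.45 with a standard error of 0.17 (95% interval -0.86 to -0.05, limma adjusted p = 0.363).

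The second row of *Oaz1*, NM_001297557, read 2.77, 3.08 and 2.76 FPKM in CSR against 2.59, 3.49 and 2.11 in control, and its groups overlapped. The main row therefore made up 86.7, 86.1 and 86.7% of the *Oaz1* rows in CSR and 91.2, 89.9 and 90.4% in control. The 2 groups did not overlap in this share, which was looked at after the values were seen. The difference of means was -4.01 percentage points (exact permutation p = 0.10, two-sided, the smallest that 3 against 3 libraries allow, and adjusted p = 0.333 over 5 shares computed). RefSeq lists a further curated transcript of *Oaz1*, NM_001301048, which is not analysed here, so the sum may not hold the whole gene. It also lists processed copies (pseudogenes) of *Oaz1*, *Odc1* and *Amd1*; how reads shared with them were counted was not tested.

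*Oaz2*, an antizyme with a broad and lower expression in most tissues, read 31.6, 25.2 and 23.4 FPKM in CSR against 34.8, 35.6 and 27.1 in control for its main row, NM_001109899. CSR library 1 lay above control library 3, so the groups overlapped. The means were 26.8 ± 4.30 and 32.5 ± 4.70 FPKM (SD, n = 3 each), and the log2 fold change was -0.27 (limma adjusted p = 0.436). Its minor row, NM_001301297, lay between 0 and 2.03 FPKM.

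The target of the antizymes, *Odc1*, was measured in 2 rows of similar level that did not move together. NM_012615 read 28.7, 25.8 and 29.5 FPKM in CSR against 32.0, 25.4 and 24.7 in control. Its groups overlapped widely, with a log2 fold change of 0.04 (95% interval -0.28 to 0.35, limma adjusted p = 0.882). NM_001302083 read 21.1, 21.5 and 19.0 FPKM in CSR against 25.5, 26.4 and 21.6 in control. Here the groups were separated, but by a margin of 21.54 in CSR library 2 against 21.55 FPKM in control library 3. The log2 fold change was -0.24 with a standard error of 0.11 (limma adjusted p = 0.392). Summed over both rows, *Odc1* had 48.5 ± 1.21 FPKM in CSR against 51.8 ± 5.63 in control (SD, n = 3 each), and the groups overlapped. NM_001302083 made up 42.4, 45.5 and 39.2% of the sum in CSR and 44.3, 50.9 and 46.6% in control (exact permutation p = 0.20, adjusted p = 0.333 over the 5 shares).

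Of the antizyme inhibitors, *Azin2* (NM_001014261) read 146.7, 140.3 and 148.5 FPKM in CSR against 156.5, 187.0 and 144.8 in control. Control libraries 1 and 2 were the highest and control library 3 lay among the CSR values. The log2 fold change was -0.16 with a 95% interval of -0.43 to 0.12 (limma adjusted p = 0.494). *Azin1*, the inhibitor found in most tissues, read 6.55, 4.59 and 6.86 FPKM in CSR against 4.15, 6.62 and 8.85 in control for NM_001301702. The control values spread on both sides of the CSR values, and the log2 fold change was -0.07 (limma adjusted p = 0.893). Its minor row, NM_022585, was listed at 0 in 4 of the 6 libraries and did not exceed 0.907 FPKM.

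Of the enzymes beyond ornithine decarboxylase, *Amd1* (NM_031011), which decarboxylates S-adenosylmethionine to provide the aminopropyl groups of spermidine and spermine, read 17.3, 12.2 and 16.6 FPKM in CSR. In control it read 24.5, 25.4 and 15.9 FPKM. Control libraries 1 and 2 lay above all others, and control library 3 lay between the CSR values. Its log2 fold change was -0.47 (standard error 0.22, limma adjusted p = 0.392).

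*Srm* (NM_053464), spermidine synthase, read 1.57, 0.752 and 0 FPKM in CSR against 0.859, 1.21 and 1.17 in control. *Sat1* (NM_001007667), the acetyltransferase that starts polyamine breakdown, read 2.16, 1.65 and 0 FPKM in CSR against 1.49, 2.32 and 0.947 in control. Both were listed at 0 in CSR library 3 only, and an exact 0 can be a failed estimate. CSR library 3 was also the library with the most rows at 0, 1415. Neither passed (limma adjusted p = 0.66 for *Srm* and 0.742 for *Sat1*). At these levels the 95% intervals were wide, from -1.27 to 0.61 for *Srm* and from -1.51 to 0.89 for *Sat1*. The log2 fold changes of -0.33 and -0.31 became -1.16 and -1.11 with a pseudocount of 0.1 FPKM.

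Control library 3 lay apart from control libraries 1 and 2, which share a code stem, in most of these rows. In 10 of the 11 tested rows, all but *Srm*, it was nearer to the CSR mean than to the mean of control libraries 1 and 2 on the log2 scale, where 58.6% of all tested transcripts were. The mean of control libraries 1 and 2 was 0.581 times the CSR mean for *Oaz3*, 1.57 times for *Oaz1* NM_139081 and 1.62 times for *Amd1*. Control library 3 was at 1.01, 1.09 and 1.03 times the CSR mean in the same 3 rows. It was further from the CSR mean in other rows, at 1.48 times for *Azin1* and 1.51 times for *Srm*. It was at 0.744 times for *Sat1*, 0.736 times for the minor row of *Oaz1* and 0.883 times for *Odc1* NM_012615. Without control library 3, *Oaz1* NM_139081 passed, with a log2 fold change of -0.62 and an adjusted p of 0.0381 by limma, where 4.58% of all tested transcripts passed in either direction and 1.59% as lower in CSR. In that comparison *Oaz3* had a log2 fold change of 0.80 with a limma adjusted p of 0.0593, *Amd1* one of -0.68 with 0.0956, and *Odc1* NM_001302083 one of -0.32 with 0.113. The lone call therefore rests on leaving out 1 library. The controls left in that fit are libraries 1 and 2, and whether they share an animal is not known. Its p-values may thus measure technical spread among the controls. With control libraries 1 and 2 averaged and counted as 1 library, *Oaz1* NM_139081 had a log2 fold change of -0.37 (limma adjusted p = 0.692) and *Oaz3* one of 0.39 (limma adjusted p = 0.697).

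**Figure D3:**
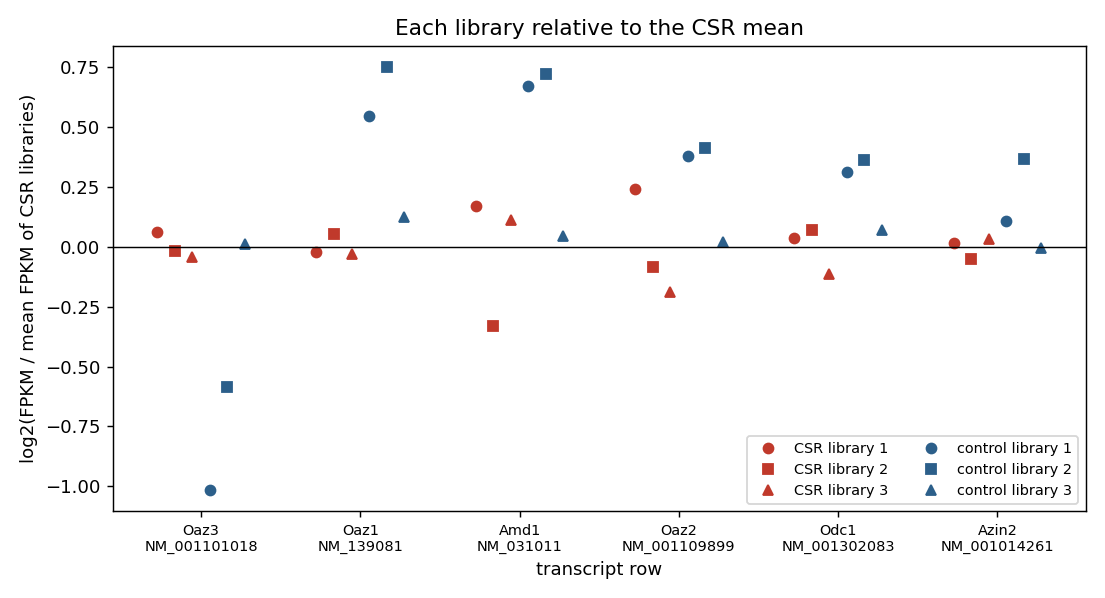
Each library relative to the CSR mean of the same row, as log2 of the FPKM ratio, for 6 rows; red marks CSR, blue control, and the shape the library number. Control libraries 1 and 2 lie below 0 for *Oaz3* and above 0 for the other 5 rows, and control library 3 (blue triangle) lies near 0 in all of them. In the tested rows not drawn, control library 3 is further from the CSR mean, from 0.736 to 1.51 times it.

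Ratios of 2 genes within a library do not depend on how the library was scaled, and 7 of 8 planned ratios could be computed. With 3 against 3 libraries an exact permutation test cannot go below p = 0.10. The FPKM of *Oaz3* were 217, 194 and 203 times those of *Oaz1* in CSR and 73.0, 84.2 and 198 times in control. Control library 3 lay within the CSR range, and the difference of 0.94 on the log2 scale had an exact permutation p of 0.20 (two-sided, adjusted p = 0.467 over 7 ratios). The ratio of *Oaz1* to its target *Odc1* was 0.419, 0.468 and 0.428 in CSR and 0.512, 0.664 and 0.479 in control. It was the single ratio whose groups did not overlap, by -0.32 on the log2 scale (exact permutation p = 0.10, adjusted p = 0.467). Leaving out control library 2 gave -0.18.

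*Amd1* stood at 0.348, 0.258 and 0.343 times *Odc1* in CSR and at 0.426, 0.490 and 0.343 times in control (exact permutation p = 0.20, adjusted p = 0.467). *Oaz2* stayed close to *Oaz1*, at 1.18 to 1.52 times in CSR and 1.10 to 1.24 times in control. *Azin2* was 21.7 to 25.5 times *Azin1* in CSR and 16.4 to 33.7 times in control. The remaining ratios, *Azin1* to *Oaz1* and *Sat1* to *Srm*, also overlapped, and the latter has no value in CSR library 3.

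**Figure D4:**
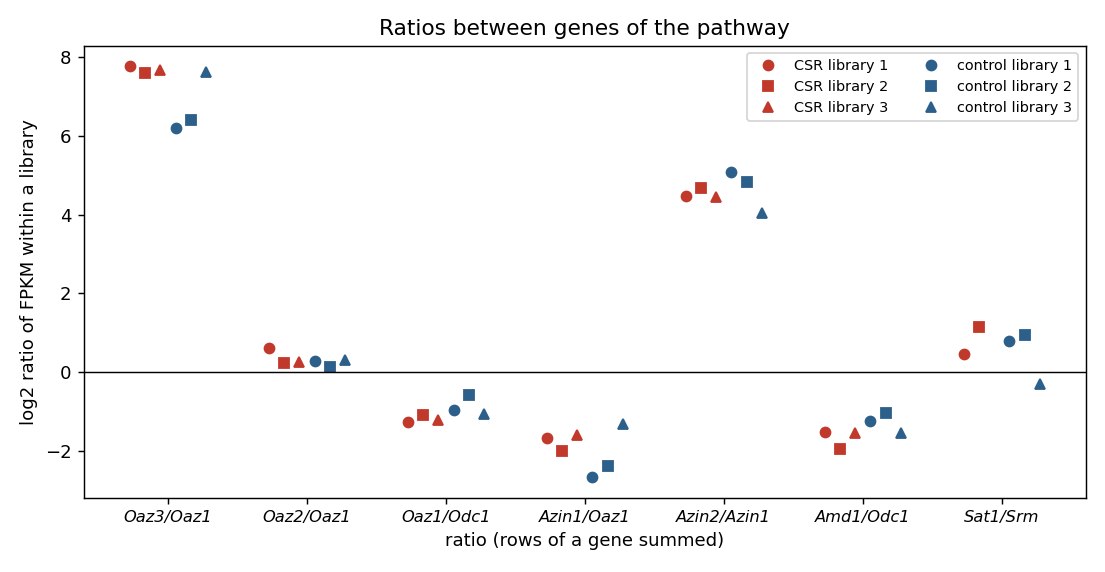
Log2 ratio of the FPKM of 2 genes within each library (rows of a gene summed), for the 7 ratios computed; each point is 1 library. *Oaz3* to *Oaz1* is lower in control libraries 1 and 2 than in the other 4, and *Oaz1* to *Odc1* is lower in all CSR than in all control libraries.

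Because *Oaz3* is a spermatid gene, its values stand beside those of other elongating spermatid genes. In bulk tissue, fewer cells of a type and less RNA per cell cannot be told apart. The summed FPKM of 12 elongating spermatid genes, of 14 listed, were 16780 to 20167 in CSR and 11739, 12563 and 18921 in control libraries 1 to 3. Control libraries 1 and 2 were thus the lowest in this sum, as they were for *Oaz3*. None of the 13 rows of the list passed by limma; 10 were positive and 3 negative, with a median log2 fold change of 0.27. *Tnp2* read 4111, 4329 and 3926 FPKM in CSR against 2668, 3186 and 3816 in control, in the same order of libraries 1 and 2 below library 3 among the controls. The protamine gene *Prm1* read 3029, 2572 and 968 FPKM in CSR but 0.0934, 0.0981 and 877 FPKM in control. *Tnp1* was also lower in control libraries 1 and 2 than in control library 3, at 4298, 4411 and 7730 FPKM. Its lowest value, 3903 FPKM, was in CSR library 1. Some other members did not share this order of the controls. *Hspb9*, a small heat shock protein of the testis, read 624, 469 and 39.9 FPKM in CSR against 712, 774 and 687 in control. The members with negative log2 fold changes were *Hspb9* (-1.66), *Ropn1* (-0.30) and *Cabs1* (-0.14). No list marker of elongating spermatids with a row was at 0 in any library.

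Other cell types did not follow one direction. The 6 round spermatid genes summed to 403 to 489 FPKM in CSR against 314 to 394 in control. Of their 7 tested rows 5 were positive and 2 negative, *Spaca1* among the latter. *Acr* read 85.9, 108 and 99.0 FPKM in CSR against 52.8, 16.4 and 77.7 in control. *Tssk1b* read 78.4 FPKM in CSR library 2 and 1.37 to 4.33 in the other libraries. A sum without *Acr* and *Tssk1b* was not computed. The 6 spermatocyte genes summed to 356 to 411 FPKM in CSR and 198 to 329 in control, lowest in control library 3. Of the spermatocyte genes *Mns1* read 146, 148 and 145 FPKM in CSR against 101, 93.6 and 51.2 in control, and a sum without it was not computed. *Hspa2*, *Pgk2* and *Ccna1* were also higher in every CSR library, while *Sycp3* and *Tbpl1* overlapped. In the spermatocyte list 1 row, *Ccna1*, a cyclin of male meiosis, rose past the threshold (limma adjusted p = 0.0421). Over all tested transcripts 0.442% were called in either direction. The 7 Sertoli cell genes summed to 68.3 to 70.7 FPKM in CSR against 75.1 to 83.9 in control, with no row past the threshold and a median log2 fold change of -0.04. *Ctsl*, a lysosomal protease, was at 30.4, 30.3 and 33.0 FPKM in CSR against 39.9, 41.1 and 40.0 in control; without it the sums overlapped, at 38.3, 40.4 and 35.3 against 39.5, 42.8 and 35.0 FPKM. In the peritubular list *Col1a1*, a collagen of stromal cells, was called lower (limma adjusted p = 0.0421). Its control values were 2.30, 2.14 and 2.73 FPKM, and every CSR library lists it at 0, which can be a failed estimate. Of the 4 tested peritubular rows 3 were negative, with a median of -0.48. The positive row was *Myh11*, which had the highest mean of the list. It read 15.8, 17.0 and 14.7 FPKM in CSR against 12.6, 10.8 and 14.2 in control, higher in every CSR library. The 5 genes with a row summed to 17.5 to 21.7 FPKM in CSR against 17.8 to 23.7 in control. The 4 macrophage genes summed to 7.68 to 9.92 FPKM in CSR against 11.2 to 15.3 in control. The 5 Leydig cell genes overlapped, at 68.2 to 118 and 67.7 to 89.7 FPKM. Whether the makeup of the tissue has a part in the differences of *Oaz3* or *Oaz1* was not tested.

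**Figure D5:**
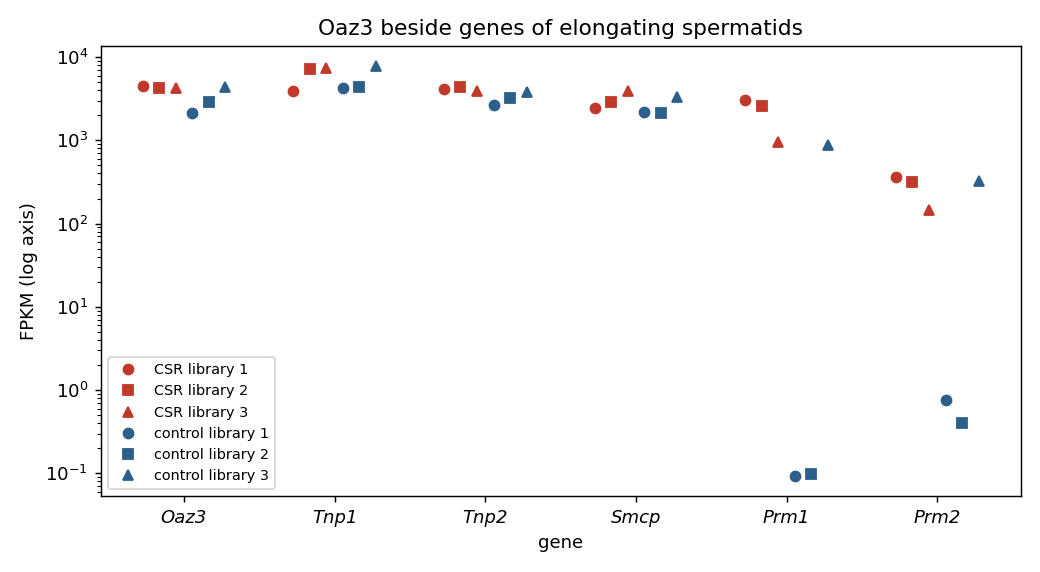
FPKM (log axis) of *Oaz3* and of 5 genes of elongating spermatids in each library; red marks CSR, blue control. *Oaz3* and *Tnp2* are lowest in control libraries 1 and 2, and *Prm1* and *Prm2* are below 1 FPKM in those 2 libraries and above 100 FPKM in the other 4. The values below 1 FPKM may be failed estimates.

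The transcripts whose pattern over the 6 libraries was most like that of the antizymes and *Odc1* were taken by the smallest mean absolute gap in log2(FPKM + 1), each centred on its own mean. For *Oaz3* they were *Higd1a* at a gap of 0.0536, *Dazap1* at 0.0569 and *Tmem269* at 0.0584, while *Oaz3* itself ranged over 1.08. *Dazap1*, an RNA-binding protein, read 38.1, 40.9 and 41.1 FPKM in CSR against 18.8, 27.1 and 40.1 in control. For the main row of *Oaz1* they were *Dhx58*, *Pcgf6* and *Rnf19a*, at gaps of 0.0284 to 0.0386. *Rnf19a*, a ubiquitin ligase of the RING family, read 74.6, 77.3 and 71.6 FPKM in CSR against 105, 112 and 81.7 in control. None of these 6 passed the threshold. Close matches over 6 libraries were many: 134 of 4733 transcripts compared lay within 0.1 of *Oaz1* NM_139081 and 24 of 3886 within 0.1 of *Oaz3*.

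The nearest to the main row of *Oaz2* were *Svbp*, *Fnta* and *Ssr2*, at gaps of 0.0373 to 0.0403. The rows of *Odc1* had different neighbours: *Mrc1*, *Adam32* and *Cox7c* for NM_012615, and *Ppp1cc*, *Cct7* and *Sdhd* for NM_001302083. *Ppp1cc*, a catalytic subunit of protein phosphatase 1, read 223, 223 and 204 FPKM in CSR against 262, 274 and 236 in control. The minor row of *Oaz1* was nearest to *Abhd2*, *Cdkn2c* and *Ripk4*.

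Genes around the pathway were read from lists of polyamine breakdown and transport, of the methionine and S-adenosylmethionine cycle, of arginine and ornithine metabolism, and of hypusine formation. Of 4 tested rows for breakdown and transport, 1 was called by limma, a transcript of *Slc3a2*, beside 0.442% of all tested transcripts. In that list 2 rows were positive and 2 negative, with a median log2 fold change of 0.11. *Slc3a2* encodes the heavy chain of amino acid transporters and has also been tied to the export of diamines. Its row NM_001271089 fell, from 17.4, 17.5 and 14.2 FPKM in control to 1.98, 2.63 and 2.05 in CSR (adjusted p = 0.00482 by limma). Its other row, NM_019283, read 35.1, 38.6 and 28.8 FPKM in CSR against 19.9, 22.3 and 23.5 in control, higher in every CSR library, but did not pass (limma adjusted p = 0.208). Summed over both rows, *Slc3a2* had 36.4 ± 5.20 FPKM in CSR against 38.25 ± 1.35 in control (SD, n = 3 each), and the groups overlapped. *Satl1*, a relative of the acetyltransferase *Sat1*, read 32.5, 35.7 and 39.1 FPKM in CSR against 25.3, 25.7 and 30.5 in control. The CSR values of *Satl1* were all above the control values, with a log2 fold change of 0.38 (limma adjusted p = 0.363), and its level was well above that of *Sat1* itself.

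Of 6 tested rows in the methionine and S-adenosylmethionine cycle, none passed; 5 were negative and 1 positive, with a median log2 fold change of -0.58. *Mat2a*, which makes S-adenosylmethionine, the substrate of *Amd1*, read 3.93, 2.56 and 0.297 FPKM in CSR against 11.3, 9.02 and 0.136 in control. Control libraries 1 and 2 were the highest and control library 3 the lowest of all, so the groups overlapped (limma adjusted p = 0.658). *Ahcyl2* and *Enoph1*, the next in level, averaged 3.32 and 1.91 FPKM over the 6 libraries. *Mat2b*, a regulatory subunit named after its values were seen, was listed at 0, 0 and 1.32 FPKM in CSR against 1.92, 2.41 and 2.44 in control (limma adjusted p = 0.363).

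Arginine and ornithine genes had 6 tested rows, *Azin2* among them, none past the threshold, with 5 negative and 1 positive and a median log2 fold change of -0.17. *Gatm*, which uses arginine for creatine synthesis, read 23.7, 22.3 and 18.6 FPKM in CSR against 24.4, 24.8 and 24.3 in control. *Asl*, argininosuccinate lyase, read 19.4, 17.2 and 14.1 against 17.5, 14.2 and 17.4 FPKM.

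Hypusine is an amino acid made from spermidine on the translation factor eIF5A. Of 3 tested rows none passed, 1 was positive and 2 negative, and the median log2 fold change was -0.04. *Dhps*, the enzyme that transfers the spermidine group, read 15.8, 22.4 and 20.2 FPKM in CSR against 12.2, 14.7 and 14.8 in control. *Eif5a2* read 11.7, 9.73 and 9.17 against 15.8, 16.9 and 12.1 FPKM, and *Eif5a* 13.6, 13.8 and 17.4 against 15.8, 21.3 and 10.6 FPKM. The groups of *Dhps* and *Eif5a2* did not overlap, in opposite directions, with limma adjusted p-values of 0.363 each, and those of *Eif5a* overlapped. Over all tested transcripts the groups did not overlap in 8.96% as higher in CSR and 12.6% as lower.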

How the data were processed

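RNA-seq of 3 CSR and 3 control testis libraries was used; groups and replicate numbers came from the labels. Poly(A) RNA was sequenced, per the labels' protocols. The authors deposited FPKM values for 7016 RefSeq transcripts; Trimmomatic, HISAT2, StringTie and the rn6 build are named, per the submitters' processing notes, with versions, settings and the selection of transcripts not given in the sources used here. Depth is therefore unknown, and no interval from counts is given. Symbols were found for 6911 accessions in RefSeq's table for GRCr8.

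The limma package (3.58.1, R 4.3.3) was run with its intensity trend on log2(FPKM + 1) of the 5657 transcripts that reached 1 FPKM in 3 or more libraries, two-sided, with Benjamini-Hochberg adjustment over all of them and a threshold of 0.05. Ratios and shares were compared by exact permutation tests. The limma fit was tested on simulated data. Shares of promoters count windows of 250 bases with a match on either strand.

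Every row of a member gene is given. Of the 4 lists around the pathway, members past the threshold are named and otherwise up to 3 with the highest mean; further names were chosen after their values were seen. The members and lists were chosen with earlier results of these data known. Alternatives changed the pseudocount, filter, scaling, trend, replicate block and libraries. The RRBS methylation libraries were left out; an rn6 annotation to place these genes was not used here.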

Additional observations from a re-analysis of the deposited data

How the results depend on the processing

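No member row passed the threshold under any alternative run, except *Oaz1* NM_139081 without control library 3 (log2 fold change -0.62, limma adjusted p = 0.0381). Over its 16 alternatives, the sum of both *Oaz1* rows among them, the limma adjusted p ranged from 0.0381 to 0.692. *Oaz3*, *Oaz1* NM_139081, *Oaz2*, *Odc1* NM_001302083, *Azin2* and *Amd1* kept their direction in every alternative run, with *Oaz3* between 0.29 and 0.80, *Oaz1* between -0.62 and -0.32 and *Amd1* between -0.68 and -0.32. Rows near 0 changed sign. *Odc1* NM_012615 was -0.020 with quantile normalization and -0.068 with sum scaling. It was -0.0002, -0.0097 and -0.030 without CSR library 3, control library 2 and control library 3 (-0.030 to 0.15 over all libraries left out in turn). The sum of both *Odc1* rows, a different quantity and an alternative chosen after seeing the data, gave -0.089. *Oaz1* NM_001297557 was -0.013 with sum scaling and -0.053 without control library 3 (-0.053 to 0.21 over the left-out libraries). *Azin1* was 0.080 without CSR library 2 and 0.14 without control library 3 (-0.32 to 0.14). Without CSR library 3, where both are listed at 0, *Sat1* was 0.20 (-0.63 to 0.20 over the left-out libraries) and *Srm* 0.032 (-0.65 to 0.032); with a pseudocount of 0.1 they were -1.11 and -1.16. The *Oaz1* to *Odc1* ratio ranged from -0.41 to -0.18 over the left-out libraries, and was -0.18 without control library 2. The *Azin2* to *Azin1* ratio was 0.11 without control library 1 (-0.41 to 0.11), and the *Sat1* to *Srm* ratio -0.0082 without CSR library 2 and -0.064 without control library 3 (-0.064 to 0.66). The cause was not tested.

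The count of called transcripts, 25, was 11 with a pseudocount of 0.1, 16 among transcripts above 0 in all libraries, 77 without the trend, 7 with control libraries 1 and 2 averaged, and 4 to 259 when each library was left out, 259 without control library 3 and 4 without control library 2. It was also 14 without CSR library 2, 7 without CSR library 3 and 8 without control library 1. The fit with 259 has control libraries 1 and 2 as its only controls, and whether they share an animal is not known. With the replicate number as a block the count was 0 by limma, with 715 transcripts at an unadjusted p under 0.05, and the *Sat1* to *Srm* ratio was -0.064. The same-numbered libraries deviated from their group means with correlations of 0.032, 0.009 and 0.042, so the numbers were not taken to pair the libraries; not every library correlated best with its own number.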
